A study of Mus musculus with 8 samples.

Results

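The regulators of the unfolded protein response described here are 10 mouse genes: the stress sensors Ern1, Eif2ak3 and Atf6, the transcription factors Xbp1, Atf4, Atf5 and Ddit3, and the response genes Herpud1, Trib3 and Ppp1r15a. They were taken as a list that was chosen with earlier results of these data known. Every probe set that the platform annotation gives to them was kept, which made 26 of the 45037 probe sets tested and 10 of the 18193 genes named by at least 1 of them. Expression was measured in the striatum of 4 R6/2 mice, numbered 64, 65, 70 and 78, and 4 wild-type mice, numbered 42, 48, 54 and 63, with 1 Affymetrix array per mouse. R6/2 mice carry the start of the human huntingtin gene with an expanded CAG repeat and are a transgenic model of Huntington's disease. All were labelled female, 85 days old (12 weeks) and of mixed C57Bl/6 and CBA background, and nothing in the labels names a treatment. The design text gives 5 wild-type mice, but the data hold arrays of 4, and none of these was left out. Values are log2 intensities per probe set, and the comparison asks which of these transcripts differed between the genotypes.

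When unfolded protein builds up in the endoplasmic reticulum (ER), sensors in its membrane signal to the nucleus and to the ribosome. IRE1, encoded by Ern1, splices the Xbp1 mRNA so that it encodes an active transcription factor. PERK, encoded by Eif2ak3, phosphorylates the initiation factor eIF2, which slows most translation while favouring that of Atf4 and Atf5, and ATF6 is cut in the Golgi to release a transcription factor. Other eIF2 kinases feed the same ATF4 branch, which is then called the integrated stress response. Splicing, phosphorylation, cleavage and translation are not seen in transcript levels on these arrays, so the values below are of mRNA alone. In tissue RNA, fewer cells of a type and less RNA per cell cannot be told apart.

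Herpud1 was the member that rose in R6/2 striatum, by 1.40-fold and 1.44-fold on its 2 probe sets. The dimmer of 2 probe sets of Ddit3, which encodes the transcription factor CHOP, fell 1.56-fold. The brighter one differed by -0.34 on the log2 scale and was not called (limma adjusted p = 0.0912). A dim probe set of Trib3, a pseudokinase gene that CHOP and ATF4 induce, fell 1.29-fold. The sensors, Xbp1, Atf4, Atf5 and Ppp1r15a had no probe set that passed the test. Of the 26 member probe sets, 2 were thus called higher, 2 lower and 22 were not called (limma, adjusted p under 0.05 over all probe sets). Over all probe sets 10.1% were called, 5.54% higher and 4.59% lower, and the 15.4% of members called lies near that background. For 5 member probe sets, or 19.2%, no R6/2 value fell within the wild-type values or the reverse, against 16.1% of all probe sets. The median difference was -0.057 over the members and -0.017 over all probe sets.

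The Herpud1 promoter is shown because Herpud1 is the member that rose and because 2 stress elements lie in it. Sequences are from RefSeq on GRCm38.p6, 5′ to 3′ in the direction of transcription, and positions count from the annotated start, with -1 the base before it. Capitals mark matches to an element, on either strand. ERSE-II, an element known to bind ATF6 and XBP1, was searched as ATTGG, any 1 base and CCACG, and the related ERSE as CCAAT, any 9 bases and CCACG. CARE, the element of ATF4 and its partners, was searched as TGATG, any 1 base and AA, and UPRE, an element of XBP1 and ATF6, as TGACGTG. The matches of these elements shared no bases in the stretches shown. The stretch chr8:94386179-94386428, plus strand, is the 250 bases before the start of Herpud1, with a CARE on the reverse strand at -112 to -105 and an ERSE-II at -52 to -42.
Herpud1: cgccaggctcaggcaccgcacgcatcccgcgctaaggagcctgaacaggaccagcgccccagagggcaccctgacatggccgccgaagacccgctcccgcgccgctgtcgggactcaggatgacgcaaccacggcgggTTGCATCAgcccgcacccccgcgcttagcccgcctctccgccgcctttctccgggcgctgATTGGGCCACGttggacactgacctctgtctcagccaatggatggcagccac

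The other stretches are shown beside it for comparison: Dnajb11 for its ERSE-II (chr16:22857842-22857871, plus strand), Hspa5 and Dnajc3 for their ERSE (chr2:34772004-34772063 and chr14:118937806-118937865, both plus strand), and Trib3, Nupr1 and Asns for their CARE (chr2:152344028-152344057, chr7:126625547-126625606 and chr6:7693210-7693269, all minus strand). Hspa5, Dnajb11, Dnajc3 and Asns were picked after their values had been seen.
Dnajb11: cccggcggcgATTGGCCCACGcctggctgc
Hspa5: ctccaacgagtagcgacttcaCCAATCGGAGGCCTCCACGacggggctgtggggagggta
Dnajc3: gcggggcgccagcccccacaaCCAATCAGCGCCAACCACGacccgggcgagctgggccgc
Trib3: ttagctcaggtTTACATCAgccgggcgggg
Nupr1: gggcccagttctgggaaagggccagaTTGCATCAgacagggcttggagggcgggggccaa
Asns: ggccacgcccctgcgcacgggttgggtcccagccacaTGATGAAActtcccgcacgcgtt

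Of the 10 members, 9 had a promoter window of 250 bases before to 50 after a start. Herpud1 held the only ERSE-II among these 9 genes, and Herpud1 and Trib3 held a CARE, that of Trib3 at 15 to 22 bases after its start. No exact ERSE or UPRE match lay in the windows of these 9 genes. Near matches were not counted, such as the CCAAT, 9 bases and CCAC that end the Herpud1 stretch shown. Among all 32851 windows 0.0365% held an ERSE-II, 0.119% an ERSE, 3.97% a CARE and 2.01% a UPRE. The elements and the genes were both picked as known parts of this response. Matches above these shares are therefore not a separate result, and no test of them was made. A match describes letters in the window and is not evidence of binding.

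Before the members' values, 2 features of the arrays need stating. Wild-type mouse 42 stood apart in its control probe sets: the 3′ signal of Gapdh exceeded the 5′ signal by 1.19 on the log2 scale, against 0.41 to 0.52 in the other wild-type mice and 0.23 to 0.35 in R6/2 mice, and that of Actb by 2.40, against 1.37 to 1.58 on all other arrays. The groups thus did not overlap in this sign of RNA quality for Gapdh, and its part in the results was not tested. Values without mouse 42 are given below for some probe sets only. Without it the differences of Atf6 1435444_at, Atf4 1438992_x_at and Ern1 1421240_at, for example, went from -0.48, 0.025 and 0.017 to -0.40, 0.12 and -0.045. None of these was called in either fit. Wild-type mouse 63 was the lowest wild-type mouse on all 3 Atf6 probe sets, and these are given with and without it. The striatal label was borne out by bright medium spiny neuron genes, such as Ppp1r1b at a mean of 11.71 and Penk at 11.87, although 7 of the 8 measured markers of these neurons were called lower. Their mean level, relative to the wild-type mean, was -0.21 to 0.13 in wild-type mice and -0.92 to -0.86 in R6/2 mice. On the same scale, 9 cortical projection neuron markers were at -0.65 to 0.48 and, in R6/2 mice, at -1.34 to -0.09 (2 of 9 lower), and 12 immediate early genes were at -0.22 to 0.22 and at -1.05 to -0.48 (7 lower). Astrocyte markers were at -0.14 to 0.19 and at -0.42 to -0.26 (2 of 8 lower), and endothelial markers at -0.13 to 0.081 and at -0.37 to -0.23 (3 of 7 lower). Markers of oligodendrocytes (-0.18 to 0.25 and -0.27 to -0.021), microglia (-0.13 to 0.12 and -0.15 to 0.12) and ependyma with choroid plexus (-0.65 to 0.76 and -0.66 to 1.01) overlapped between the groups. The cortical projection neuron markers overlapped as well. The part of these shifts in the members' differences was not tested beyond a fit with the cortical marker mean as a covariate, whose values stand beside the called members and, for the brightest probe set, the uncalled ones.

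**Figure D1:**
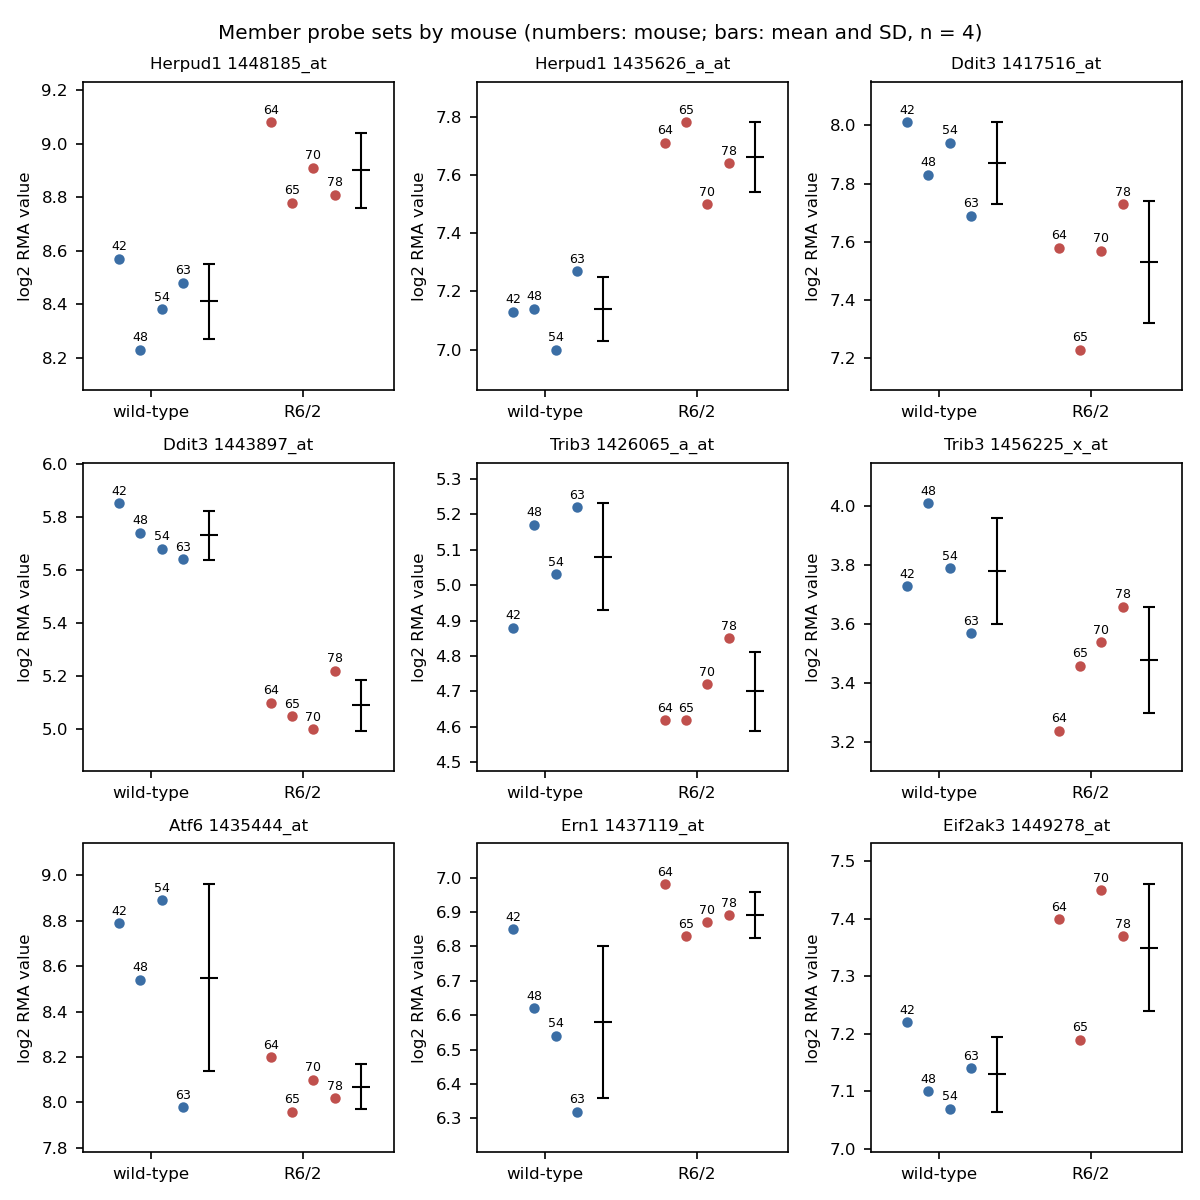
Log2 values of 9 member probe sets in each mouse (points, numbered by mouse) with the group mean and SD (n = 4). Both Herpud1 probe sets lie higher in every R6/2 mouse, Ddit3 1443897_at and Trib3 1426065_a_at lie lower in every R6/2 mouse, and wild-type mouse 63 lies among the R6/2 mice for Atf6.

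Among the sensors, Atf6 had the widest spread between wild-type mice. Its brightest probe set, 1435444_at, had 8.79, 8.54, 8.89 and 7.98 in wild-type mice 42, 48, 54 and 63 and 8.20, 7.96, 8.10 and 8.02 in R6/2 mice 64, 65, 70 and 78. Mouse 63 lay within the R6/2 range, while the other 3 wild-type mice lay above it. The difference of -0.48 ± 0.17 (log2, SE) was not called (limma adjusted p = 0.110), but it was with array quality weights (-0.49, adjusted p = 0.0492) and when wild-type mouse 63 was left out (-0.67 ± 0.10, adjusted p = 0.00576).

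The other Atf6 probe sets, 1456021_at and 1453288_at, also had wild-type mouse 63 below the other wild-type mice. On 1456021_at mouse 63 had 5.89 against 6.27 to 6.55 in the other wild-type mice and 5.97 to 6.07 in R6/2 mice, and on 1453288_at 4.67 against 5.09 to 5.47 and 4.79 to 4.93. Mouse 63 was thus the lowest of all 8 mice on both. Their differences of -0.25 ± 0.12 and -0.23 ± 0.14 (log2, SE) were not called (limma adjusted p = 0.248 and 0.349), and became -0.37 (adjusted p = 0.0291) and -0.38 (adjusted p = 0.0466) without that mouse. Probe sets of 1 gene on the same array share the RNA of that mouse and are not separate replicates. Without wild-type mouse 42, which had the highest value on 1453288_at, the difference there was -0.11. With the cortical covariate the 3 Atf6 differences were -0.48, -0.37 and -0.16, none called (adjusted p = 0.341, 0.284 and 0.755).

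Ern1 has 5 probe sets. On the brightest, 1437119_at, the wild-type mice had 6.85, 6.62, 6.54 and 6.32 and the R6/2 mice 6.98, 6.83, 6.87 and 6.89. Wild-type mouse 42 lay within the R6/2 range and the other 3 lay below it. The difference of 0.31 ± 0.11 (log2, SE) was not called (limma adjusted p = 0.0970), and was with array quality weights (0.32, adjusted p = 0.0381) and when mouse 42 was left out (0.40, adjusted p = 0.0260). The other 4 differed by 0.017, 0.15, 0.020 and -0.089, none called, with adjusted p from 0.301 to 0.958, and the mean of all 5 differed by 0.081 (adjusted p = 0.405). The fit with the cortical covariate put 1437119_at at 0.43, not called (adjusted p = 0.143).

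Eif2ak3 encodes PERK. Its probe set 1449278_at, tied to a RefSeq transcript, had 7.22, 7.10, 7.07 and 7.14 in wild-type and 7.40, 7.19, 7.45 and 7.37 in R6/2 mice. All R6/2 mice except 65 lay above the wild-type range. The difference of 0.22 ± 0.078 (log2, SE) was not called (limma adjusted p = 0.109), except with array quality weights (0.26, adjusted p = 0.0435). The remaining probe sets, 1453505_a_at and 1430371_x_at, were dim, at means of 3.84 and 3.38, and differed by -0.14 ± 0.11 and -0.077 ± 0.081 (adjusted p = 0.469 and 0.612). The mean over the 3 probe sets differed by 0.00042. The difference of 1449278_at was 0.32 with the cortical covariate and was not called (adjusted p = 0.118).

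Xbp1 is measured by 4 probe sets, and the deposited values do not separate its spliced and unspliced mRNA. The one tied to a RefSeq transcript, 1420886_a_at, had 9.52, 9.71, 9.56 and 9.56 in wild-type and 9.86, 9.67, 10.03 and 9.71 in R6/2 mice. Its difference of 0.23 ± 0.093 (log2, SE) was not called (limma adjusted p = 0.155). The others differed by 0.015, -0.038 and -0.12, with adjusted p of 0.954, 0.863 and 0.568. On those 3 the highest of all 8 mice was wild-type mouse 42, at 10.47, 9.48 and 6.32, the mouse with the largest 3′ to 5′ difference of the control probe sets. Without it they differed by 0.12, 0.057 and -0.0091, and none was called. When the cortical covariate was added 1420886_a_at differed by 0.31 (adjusted p = 0.227) and 1437223_s_at by 0.12 (adjusted p = 0.763).

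Atf4 encodes the transcription factor through which eIF2 phosphorylation acts on genes of amino acid supply. On its brightest probe set, 1448135_at, the wild-type mice had 9.48, 9.42, 9.57 and 9.53 and the R6/2 mice 9.85, 9.58, 9.63 and 9.67. The groups did not overlap, but the gap was 0.01 on the values as printed, and the difference of 0.18 ± 0.079 (log2, SE) was not called (limma adjusted p = 0.190). The other 2 probe sets differed by 0.025 ± 0.12 and -0.15 ± 0.11 (adjusted p = 0.925 and 0.441). With the cortical covariate 1448135_at differed by 0.24 and 1439258_at by -0.35, neither called (adjusted p = 0.283 and 0.196). Atf5, a related factor that is also controlled by translation, had 7.21, 7.15, 7.06 and 7.25 in wild-type and 7.39, 6.98, 7.24 and 7.0 in R6/2 mice, a difference of -0.016 ± 0.10 (adjusted p = 0.946), with a 95% interval from -0.24 to 0.21, and 0.20 with the cortical covariate (adjusted p = 0.317).

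Ddit3 encodes CHOP, a transcription factor that ATF4 and ATF6 induce in prolonged ER stress and that is known for its link to cell death. Probe set 1443897_at is tied by the annotation to a sequence record other than a RefSeq transcript, and where its probes lie on the gene was not checked here. It had 5.85, 5.74, 5.68 and 5.64 in wild-type mice 42, 48, 54 and 63 and 5.10, 5.05, 5.00 and 5.22 in R6/2 mice 64, 65, 70 and 78. All R6/2 mice lay below all wild-type mice, with a gap wider than the range of either group. The difference was -0.64 ± 0.079 (log2, SE, limma adjusted p = 0.00148), and the call held without each array, at -0.68 to -0.60, and with the cortical covariate (-0.61, adjusted p = 0.0275).

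The brighter Ddit3 probe set, 1417516_at, is the one tied to a RefSeq transcript. It gave 8.01, 7.83, 7.94 and 7.69 in wild-type and 7.58, 7.23, 7.57 and 7.73 in R6/2 mice, so that R6/2 mouse 78 lay above wild-type mouse 63. Its difference of -0.34 ± 0.11 (log2, SE) missed the threshold (limma adjusted p = 0.0912) and passed it after quantile normalization (-0.38, adjusted p = 0.0456). It was -0.28 with the cortical covariate and not called (adjusted p = 0.412). The 95% interval of this difference ran from -0.59 to -0.085, and that of 1443897_at from -0.81 to -0.46. The mean of the 2 probe sets differed by -0.49 ± 0.084 (limma adjusted p = 0.00453, in a fit of 1 value per gene).

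Herpud1 encodes a membrane protein of the ER that takes part in ER-associated degradation, the removal of misfolded proteins to the proteasome, and its transcript is among the most strongly induced in the unfolded protein response of cultured cells. On probe set 1448185_at, which the platform annotation ties to a RefSeq transcript, the wild-type mice 42, 48, 54 and 63 had 8.57, 8.23, 8.38 and 8.48, and the R6/2 mice 64, 65, 70 and 78 had 9.08, 8.78, 8.91 and 8.81. Every R6/2 mouse lay above every wild-type mouse. The means were 8.41 ± 0.14 and 8.90 ± 0.14 (log2, SD, n = 4 each), a difference of 0.48 ± 0.097 (log2, SE, limma adjusted p = 0.0135).

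The other Herpud1 probe set, 1435626_a_at, gave 7.13, 7.14, 7.0 and 7.27 in the wild-type mice and 7.71, 7.78, 7.50 and 7.64 in the R6/2 mice, in the same order of animals. The groups again did not overlap, with a difference of 0.52 ± 0.087 (log2, SE, limma adjusted p = 0.00576). The 2 probe sets did not rank the R6/2 mice alike, as mouse 64 was highest on one and mouse 65 on the other. Both calls held without each of the 8 arrays, with differences from 0.42 to 0.53 and from 0.48 to 0.58. With the cortical marker mean as a covariate the differences were 0.65 (limma adjusted p = 0.0238) and 0.56 (adjusted p = 0.0478).

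Trib3 encodes a pseudokinase that binds the kinase AKT and ATF4 and is a target of ATF4 and CHOP. Probe set 1426065_a_at had 4.88, 5.17, 5.03 and 5.22 in wild-type and 4.62, 4.62, 4.72 and 4.85 in R6/2 mice. The groups did not overlap, although wild-type mouse 42 and R6/2 mouse 78 were close. The difference of -0.37 ± 0.094 (log2, SE, limma adjusted p = 0.0336) was still called when wild-type mouse 42 (-0.44, adjusted p = 0.0174) or R6/2 mouse 78 was left out, but not without any 1 of the other 6 arrays (adjusted p up to 0.0934). It was also not called with the cortical covariate (-0.43, adjusted p = 0.118).

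The other Trib3 probe set, 1456225_x_at, was near background, with a mean of 3.63. Background was read from 10 probe sets of the Y-linked genes Eif2s3y, Kdm5d, Uty and Usp9y, which lay between 2.77 and 3.71 on these arrays from female mice. The other 3 Y-linked probe sets measured, among them those of Sry and Zfy2, lay higher, between 3.09 and 5.37. That wider range holds all 8 values of Trib3 1426065_a_at and the R6/2 values of Ddit3 1443897_at, both called lower. Probe set 1456225_x_at had values of 3.73, 4.01, 3.79 and 3.57 in wild-type and 3.24, 3.46, 3.54 and 3.66 in R6/2 mice, with overlapping groups and a difference of -0.30 ± 0.11 (limma adjusted p = 0.136). In all, 4 member probe sets had means at or below 3.71, the highest value of the first 10: this one, 1450176_at and 1431886_at of Ern1, and 1430371_x_at of Eif2ak3.

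Ppp1r15a encodes GADD34, the stress-induced subunit that brings protein phosphatase 1 to eIF2 and so reverses its phosphorylation. Its probe set, 1448325_at, gave 7.30, 7.28, 7.27 and 7.21 in wild-type and 7.35, 7.08, 7.20 and 7.07 in R6/2 mice. The R6/2 values lay on both sides of the narrow wild-type range. The difference was -0.087 ± 0.080 (log2, SE, limma adjusted p = 0.550), with a 95% interval from -0.26 to 0.090, and 0.028 with the cortical covariate (adjusted p = 0.932).

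**Figure D2:**
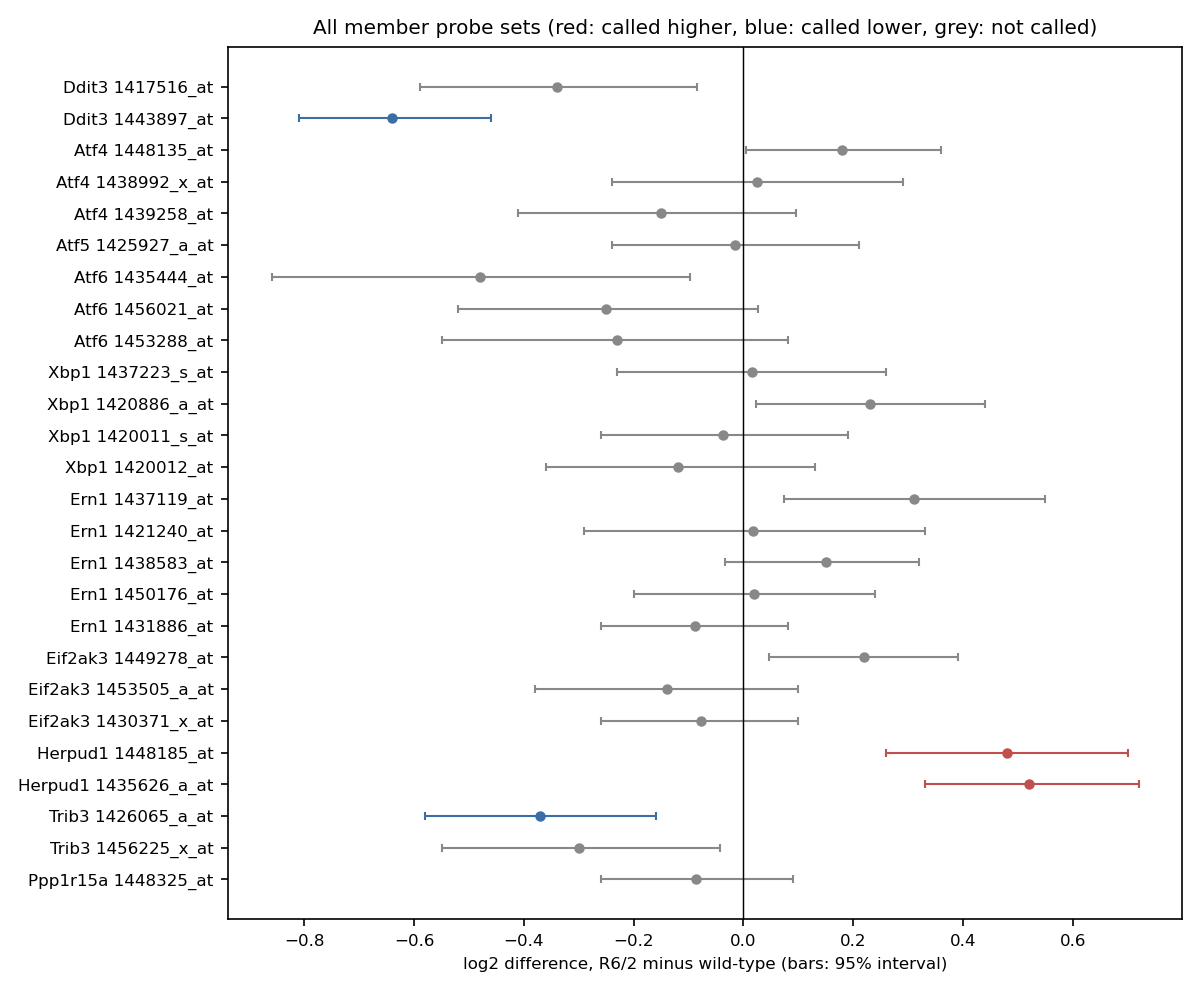
Log2 difference, R6/2 minus wild-type, of all 26 member probe sets with its 95% interval. Herpud1 is at 0.48 and 0.52, Ddit3 at -0.34 and -0.64, Trib3 at -0.37 and -0.30, and the 22 grey probe sets were not called.

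Across the members, 7 probe sets had an unadjusted p under 0.05 without being called: the bright ones of Ddit3, Atf4, Atf6, Ern1 and Eif2ak3, 1420886_a_at of Xbp1 and 1456225_x_at of Trib3. Their differences lay between -0.48 and 0.31. Of all 18193 genes, each read on its brightest probe set, 5283 had an unadjusted p under 0.05 (limma), called or not. Read in this way 7 of the 10 member genes did. Of the 26 differences 11 were above 0 and 15 below.

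**Figure D3:**
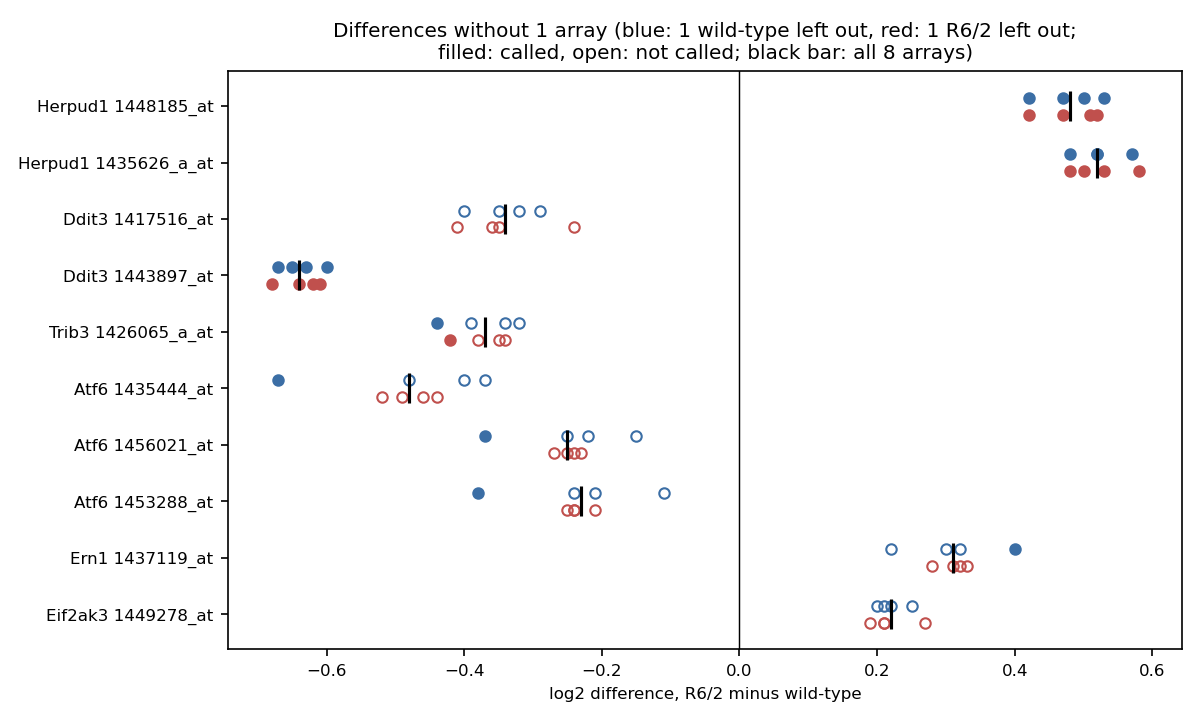
Log2 difference, R6/2 minus wild-type, of 10 member probe sets when each array in turn is left out (blue, a wild-type array; red, an R6/2 array; filled, called). Both Herpud1 probe sets and Ddit3 1443897_at were called in all 8 fits, Trib3 1426065_a_at in 2, and each Atf6 probe set in 1, the fit without wild-type mouse 63.

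By the root mean square distance over the 8 arrays, after each probe set's wild-type mean was subtracted, the genes closest to Ddit3 1443897_at were Nat8l (0.052), Mgat4b (0.052) and Stard10 (0.069). Closest to Herpud1 1435626_a_at were Kdm1b (0.042), Fgd4 (0.052) and Mis12 (0.073). Closest to Herpud1 1448185_at were Dnajb1, a cytosolic co-chaperone of HSP70 (0.055), Ubxn7 (0.074) and Cand1 (0.075). A small distance on this measure requires a similar difference between the groups. That these genes had differences close to those of the member, for example 0.46 for Dnajb1 against 0.48, is therefore not a separate result.

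The other genes of the pathway were taken from 6 lists by role, each gene read on its brightest probe set and adjusted over all probe sets. These lists too were chosen with earlier results of these data known. Of 127 measured genes 25 were called higher and 4 lower, or 19.7% and 3.15%, against 7.29% higher and 5.13% lower of all genes read in this way. Their median difference was 0.11, and that of all genes -0.0034. The shares and the median of all genes are the background for each list below. Without the dimmest 40% of probe sets 27 of 119 pathway genes were called higher and 4 lower. In that fit 2877 of all 27022 probe sets were higher and 2240 lower. This background is counted by probe set and the pathway by gene, so these shares are not in like units. Without 1 array the number of pathway genes called higher ran from 10, without wild-type mouse 48 or R6/2 mouse 70, to 20. It was also low without R6/2 mouse 64 (11), R6/2 mouse 78 (12) or wild-type mouse 54 (14), and was 17 without wild-type mouse 42 or 63. With the cortical covariate 5 were called higher and 1 lower, while the median standard error of all probe sets rose from 0.096 to 0.13 and 3.18% of all probe sets were called.

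ER-associated degradation and the translocon, the machinery that moves proteins into and out of the ER, had 29 measured members. Of these 10 were higher, 0 lower and 19 not called (limma). An unadjusted p under 0.05 was found for 16 of them, against 5283 of all 18193 genes. The median of the list was 0.22. The median was 0.15 to 0.27 without 1 array, but the number called higher was only 2 without R6/2 mouse 64, 4 without wild-type mouse 48, R6/2 mouse 70 or R6/2 mouse 78, 5 without wild-type mouse 54, 6 without wild-type mouse 63 (with 1 lower), and at most 8. It was 3 with the cortical covariate, and 1 member was called lower after quantile normalization and with array quality weights. Ssr1, a subunit of the translocon-associated complex, was higher by 0.45 ± 0.066 (log2, SE, limma adjusted p = 0.00335), and Edem3, which trims the sugars of misfolded glycoproteins, by 0.46 ± 0.076 (adjusted p = 0.00511). Both were called without each array. Sec61b, a subunit of the translocon, was higher by 0.31 ± 0.067 (adjusted p = 0.0179), and Nploc4, a cofactor of the extraction enzyme VCP, by 0.32 ± 0.074 (adjusted p = 0.0229). Sec61b was not called without wild-type mouse 48 or R6/2 mouse 64, nor was Nploc4 without either of them, wild-type mouse 54 or R6/2 mouse 70.

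Among 24 ER chaperones and folding enzymes, 5 were higher, 1 was lower and 18 were not called, with a median of 0.032. Hspa13, an HSP70 family member of the microsomes, was higher by 0.69 ± 0.12 (log2, SE, limma adjusted p = 0.00650), and Manf, a secreted ER stress protein, by 0.37 ± 0.077 (adjusted p = 0.0152). Dnajb9, a co-chaperone and known XBP1 target, was higher by 0.29 ± 0.070 (adjusted p = 0.0284, not called without any 1 of 6 arrays), and Fkbp2, a prolyl isomerase of the ER, fell (-0.55 ± 0.098, adjusted p = 0.00763). Hspa5, which encodes the chaperone BiP and is the usual readout of the response, had 10.99, 10.56, 10.45 and 10.72 in wild-type and 10.90, 10.72, 10.97 and 11.03 in R6/2 mice. The groups overlapped and the difference of 0.23 ± 0.12 was not called (adjusted p = 0.285). Without any 1 of the 8 arrays 2 to 3 genes of this list were called higher (2 without wild-type mouse 48 or R6/2 mouse 70), and with the cortical covariate 0 were called either way.

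Of the pathway genes whose windows were searched, 10 measured genes held an ERSE, 8 of them chaperones or folding enzymes and the others Derl3 and Syvn1. Only Dnajc3, an inhibitor of PERK, was called higher among these 10 (0.47 ± 0.13, limma adjusted p = 0.0469), and the other 9 were not called. Calr differed by 0.019 and Hsp90b1 by -0.24. Dnajb11, whose ERSE-II lay at 8 to 18 bases after its start, differed by -0.061 ± 0.090 (adjusted p = 0.734). Herpud1, whose ERSE-II lay before its start at -52 to -42, differed by 0.48 and 0.52. What part the element has in these differences was not tested. Of 15 measured genes with a CARE, 1 was higher, 1 lower and 13 not called, and of 6 with a UPRE 1 was higher. Of all genes read on the brightest probe set 7.29% were higher and 5.13% lower, and of the 127 pathway genes 19.7% and 3.15%. The groups by element are too small to be set apart from these shares.

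Genes of the eIF2 kinases, eIF2, its exchange factor eIF2B and its phosphatase had 5 of 15 measured members higher, 1 lower and 9 not called, with a median of 0.22 and 14 differences above 0. Eif2ak1, the heme-regulated eIF2 kinase, was higher by 0.45 ± 0.087 (log2, SE, limma adjusted p = 0.0110), with calls on 2 of its 4 other probe sets as well. Eif2s3x, the gamma subunit of eIF2, was higher by 0.33 ± 0.081 (adjusted p = 0.0280, lost without any 1 of 5 arrays), and the adaptor gene Nck1 by 0.44 ± 0.11 (adjusted p = 0.0344, lost without any 1 of 6). Ppp1ca, a catalytic subunit of protein phosphatase 1, fell (-0.54 ± 0.084, adjusted p = 0.00436) and was called without each array. Without any 1 of the 8 arrays 1 to 3 genes of this list were called higher (1 without wild-type mouse 48, R6/2 mouse 70 or R6/2 mouse 78, 2 without wild-type mouse 42 or 54), and with the cortical covariate 0 were higher and 1 lower. Without probe sets ending in _s_at, _x_at or _a_at, 3 of 9 were higher.

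Of 37 measured target genes of ATF4, 3 were higher, 1 was lower and 33 were not called, with a median of 0.081. The share called higher, 8.11%, lay near the 7.29% of all genes, and 2.7% were lower against 5.13% of all genes. Without R6/2 mouse 65, 5 were called higher, with the mean of a gene's probe sets 6 were, and with the cortical covariate 1 was higher and 0 lower. Those called were Xpot, the tRNA export factor (0.51 ± 0.071, log2 and SE, limma adjusted p = 0.00260), the mitochondrial serine enzyme gene Shmt2 (0.52 ± 0.11, adjusted p = 0.0139), the asparaginyl-tRNA synthetase gene Nars1 (0.37 ± 0.081, adjusted p = 0.0180, not called without wild-type mouse 48) and Nupr1, a stress-induced chromatin protein gene, which fell (-0.63 ± 0.097, adjusted p = 0.00408). Another probe set of Nupr1 differed by -1.03 ± 0.096 (adjusted p = 0.000444). Asns, the asparagine synthetase gene that is a standard ATF4 target, had 9.43, 9.52, 9.57 and 9.34 in wild-type and 10.05, 9.57, 9.85 and 9.70 in R6/2 mice, a difference of 0.33 ± 0.11 that was not called (adjusted p = 0.0802). Chac1, which degrades glutathione and is induced by ATF4, differed by 0.30 ± 0.11 (adjusted p = 0.130). Its groups did not overlap, but wild-type mouse 42 and R6/2 mice 65 and 70 all had 6.06 on the values as printed. Vldlr went the other way, by -0.20 ± 0.077 (limma adjusted p = 0.143), also with groups that did not overlap. Of the 37 differences 26 were above 0 and 11 below.

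**Figure D4:**
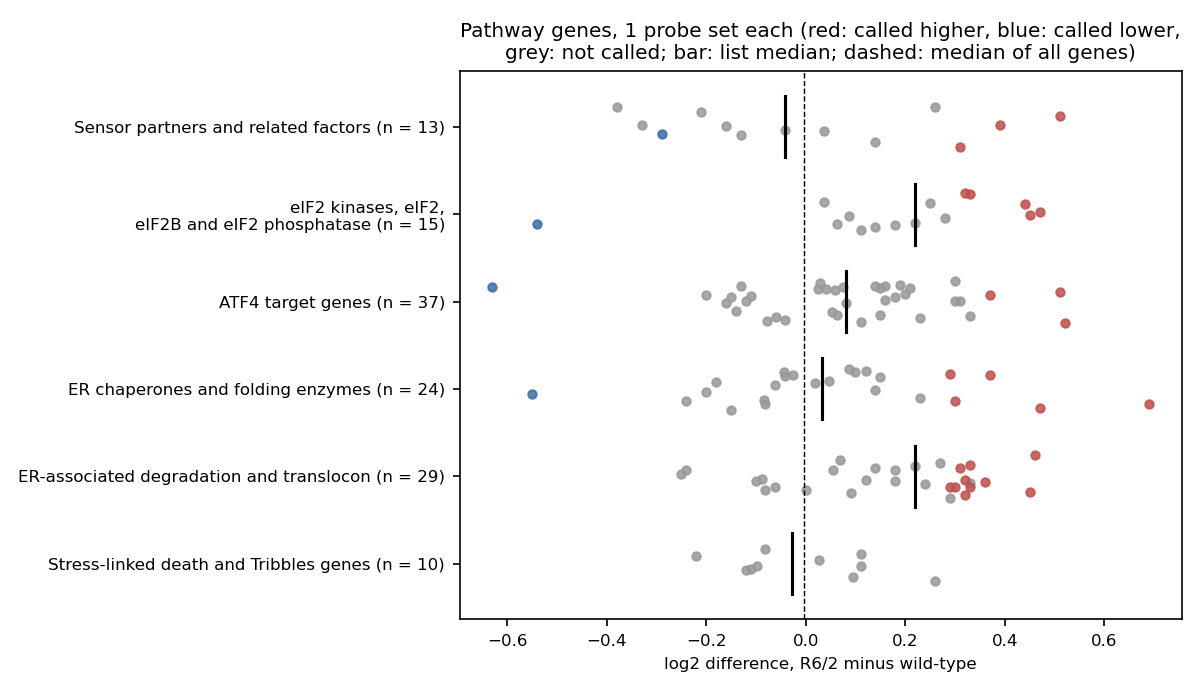
Log2 difference, R6/2 minus wild-type, of each measured gene in the 6 pathway lists, read on its brightest probe set (red, called higher; blue, called lower; grey, not called), with the list median as a bar and the median of all genes, -0.0034, as a dashed line. The medians are 0.22 for the eIF2 list and for the degradation and translocon list, and -0.041 to 0.081 for the other lists.

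Among 13 partners of the sensors and related factors, 3 were higher, 1 was lower and 9 were not called, with a median of -0.041. After quantile normalization 1 was higher and 2 were lower, and with each array centred on its median 3 were higher and 0 lower. Mbtps1 and Mbtps2 encode the Golgi proteases that cut ATF6. Mbtps1 fell (-0.29 ± 0.077, limma adjusted p = 0.0421) and Mbtps2 higher by 0.31 ± 0.084 (adjusted p = 0.0440). Creb3l2, an ER-bound factor related to ATF6, was higher by 0.51 ± 0.11 (adjusted p = 0.0194), and Nfe2l2, the oxidative stress factor that PERK can phosphorylate, by 0.39 ± 0.11 (adjusted p = 0.0413). These calls were lost without any 1 of 7 arrays for Mbtps1, Mbtps2 and Nfe2l2 and without any 1 of 3 for Creb3l2. Without wild-type mouse 48 or R6/2 mouse 70, and with the cortical covariate, 0 genes of this list were called higher, and 1 was without wild-type mouse 54 or R6/2 mice 64, 65 or 78.

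In the list of stress-linked death and Tribbles genes, 0 of 10 measured genes were called with limma, 0 had an unadjusted p under 0.05, and the median was -0.027. The call count was 0 without each array as well, and 1 was called higher with the cortical covariate. Trib2, a relative of Trib3, differed by -0.11 ± 0.14 (adjusted p = 0.665) and Tmbim6, an ER membrane protein gene also known as BAX inhibitor, by 0.095 ± 0.075 (adjusted p = 0.479).

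The brightest probe set does not speak for every probe set of these pathway genes. Of 29 other probe sets of the genes named by rule, 9 were called higher and 1 lower (limma). A sign opposite to that of the brightest probe set was seen on 6, and 0 of these were called.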

How the data were processed

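Biotin-labelled striatal RNA of each mouse was measured on 1 Affymetrix array. The authors deposited RMA values, on the log2 scale, 1 per probe set; RMA and affy are named in the submitters' processing notes, without versions. RMA corrects background, normalizes between arrays and summarises probes, and compresses differences of dim probe sets; no source used here says which arrays were processed together. No column was left unused (0). Of 45101 probe sets 64 controls were left out; 34945 had 1 gene symbol, 932 several and 9160 none. Member symbols were unchanged in RefSeq (GRCm38.p6).

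The 8 arrays were fitted in R 4.3.3 with limma 3.58.1 (lmFit, eBayes), 1 model over all probe sets, with Benjamini-Hochberg adjustment; the fit was tested on simulated data. Each mouse has its own number in the labels. The members, lists and tests were chosen with earlier results of these data known. Genes named by rule were the members, up to 4 called genes of each pathway list by adjusted p (or the 2 brightest), and the 3 nearest genes of the 3 member probe sets with the smallest adjusted p; others were named after their values were seen. Alternatives are given in the closing section. The number of arrays limits precision. Promoter searches and plots used Python 3.11.15 and matplotlib 3.10.9.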

Additional observations from a re-analysis of the deposited data

Results flagged for a closer look

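In wild-type mouse 42 the 3′ minus 5′ control signal of Gapdh was 1.19 (log2), against 0.52 for the nearest of the other 3 wild-type mice and 0.41 for the farthest. On the Ern1 probe set 1431886_at wild-type mouse 63 had 3.55, against 3.31 in each of the other wild-type mice, all below 3.71, the highest value of 10 probe sets of the Y-linked genes Eif2s3y, Kdm5d, Uty and Usp9y. Both were noted because 1 sample lay far from the others of its group. With 72 groups examined, about 1 in 20 would be noted by chance, and 2 were.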

How the results depend on the processing

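Of the member calls, both Herpud1 probe sets and Ddit3 1443897_at held in every alternative that included them, and Trib3 1426065_a_at did not. Member probe sets called numbered 7 with array quality weights (4 higher, 3 lower), 2 without probe sets ending in _s_at, _x_at or _a_at (1 higher, 1 lower, of 16 tested), and 3 to 6 without 1 array (2 to 3 higher, 1 to 4 lower). With the cortical covariate 3 were called (2 higher, 1 lower). With 1 brightest probe set per gene 2 of 10 genes were called (1 higher, 1 lower), and with the mean of a gene's probe sets 3 were (1 higher, 2 lower). Of all 45037 probe sets 5996 were called with array quality weights (3401 higher, 2595 lower), against 4566 in the main fit. Without probe sets ending in _s_at, _x_at or _a_at, 3504 of 36082 were called (1803 higher, 1701 lower). Over all features the counts were 2781 genes (1654 higher, 1127 lower) by the brightest probe set, 2675 (1587 and 1088) by the mean, 1433 probe sets (751 and 682) with the cortical covariate, and 2650 to 4262 (1287 to 2372 higher, 1358 to 2084 lower) without 1 array, the lowest without R6/2 mouse 70, with 2656 without wild-type mouse 48 and 2780 without R6/2 mouse 64; without R6/2 mouse 78, 1556 were higher. Pathway genes called numbered 6 (5 higher, 1 lower) with the covariate and 13 to 23 (10 to 20 higher, 3 to 5 lower) without 1 array. The covariate fit has fewer residual degrees of freedom; the cause of the other changes was not tested.

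Small differences that were not called changed sign. With the cortical covariate these were Atf4 1438992_x_at (-0.0037), Atf5 (0.20), Xbp1 1420011_s_at (0.040), Ern1 1421240_at (-0.14) and 1450176_at (-0.0023), Ppp1r15a (0.028) and Trib2 (0.19). With quantile normalization Atf4 1438992_x_at was at -0.0079, and with array weights Atf5 was at 0.011 and Ern1 1450176_at at -0.012. Without 1 array the ranges spanned 0 for Atf4 1438992_x_at (-0.052 to 0.12), Atf5 (-0.094 to 0.042), Xbp1 1437223_s_at (-0.051 to 0.12) and 1420011_s_at (-0.10 to 0.057), Ern1 1421240_at (-0.047 to 0.15) and 1450176_at (-0.061 to 0.089), and Trib2 (-0.20 to 0.022). No paired analysis was possible because the groups share no replicate numbers.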
